A study of Mus musculus with 18 samples.

Results

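The response of Tlr779 B cells to the TLR7 agonist CL097 was examined by RNA sequencing. Tlr779 encodes a chimeric receptor made of the endosomal and transmembrane domains of TLR7 and the signaling TIR domain of TLR9, so that a TLR7 ligand is read out through the TLR9 TIR. The 6 libraries of this response, of 18 in the series, were chosen by the genotype and treatment in their labels. The labels name 3 mice of this genotype, whose cells were stimulated or left untreated. There were 3 libraries of Tlr779 Tlr9-/- B cells stimulated for 4 h with 5 µg/ml CL097 and 3 libraries of Tlr779 Tlr9-/- B cells left unstimulated. All came from male MRL/lpr mice aged 5 to 7 weeks, and both groups therefore carried the chimeric allele, the Tlr9 deficiency and the lupus-prone Fas lpr background. The cells were splenic B cells purified with beads, which can hold marginal zone (MZ), follicular (FO) and other B cells. The other 12 libraries, used here for side-by-side values only, were from female Tlr7-/- MRL/lpr mice, labelled Tlr9het or Tlr997, with and without 10 µg/ml of the TLR9 agonist CpG for 4 h. The allele is present in the whole mouse, Tlr7 is X-linked, and a control genotype with an unmodified TLR7 was not analysed here, so the values describe what CL097 changed in Tlr779 cells and not what the exchanged TIR domain changed.

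TLR7 is an endosomal sensor of single-stranded RNA that also responds to small imidazoquinolines such as CL097. Its TIR domain recruits MyD88, which assembles IRAK kinases and TRAF6 and leads to activation of NF-κB, MAP kinases and interferon regulatory factors. In B cells this signal drives growth, cytokine secretion, altered antigen presentation and entry into the cell cycle, and it is held in check by IκB proteins, deubiquitinases, SOCS proteins and inhibitory receptors whose genes it also controls.

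The values were log2 CPM, which are read counts divided by library size, as normalized by the authors. A gene was tested when at least 3 of the 6 libraries exceeded 0 log2 CPM, and it was called when it differed by more than 0.5 in either direction on the log2 scale and its adjusted p in limma was under 0.05. Replicates correlated across genes at 0.978 to 0.982 with CL097 and at 0.984 to 0.989 without, compared with 0.897 to 0.920 between the groups. B-cell markers were high in every library, while Cd3d, Cd3e, Cd3g, Cd4 and Cd8a did not pass the filter on low values. Of the T-cell markers, 2 passed it, among them Cd2 (log2 fold change -1.69). The T-cell marker list summed to 123.4 to 150.5 CPM with CL097 and to 231.8 to 278.8 CPM without. The 10 macrophage markers summed to 111 to 225 CPM with CL097 and to 200 to 466 CPM without. Erythroid markers stood out in both libraries with the replicate number 2, at 3693 and 4098 CPM compared with 749 to 1428 CPM in the other 4 libraries. In bulk samples, fewer cells of a type and less RNA per cell cannot be told apart.

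Upon stimulation with CL097, 5132 of 11082 genes tested were called (46.3%), of which 2520 were higher (22.7% of genes tested) and 2612 were lower (23.6%). Because close to every other gene was called, the counts below are read against these shares. The median log2 fold change of all genes tested was -0.02 and 49% of them were positive. The authors' quantile normalization gives all libraries 1 distribution of values, which favors such a balance. These values therefore do not show whether total RNA changed. The changes were often large: 1245 called genes rose and 1335 fell by more than 1 on the log2 scale, and 254 rose and 232 fell by more than 2. Beyond 4 on this scale the response was one-sided, with 27 genes higher and 3 lower. The plot of fold change against expression level shows that the largest rise, that of Il12b, started from a near-silent gene.

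**Figure D1:**
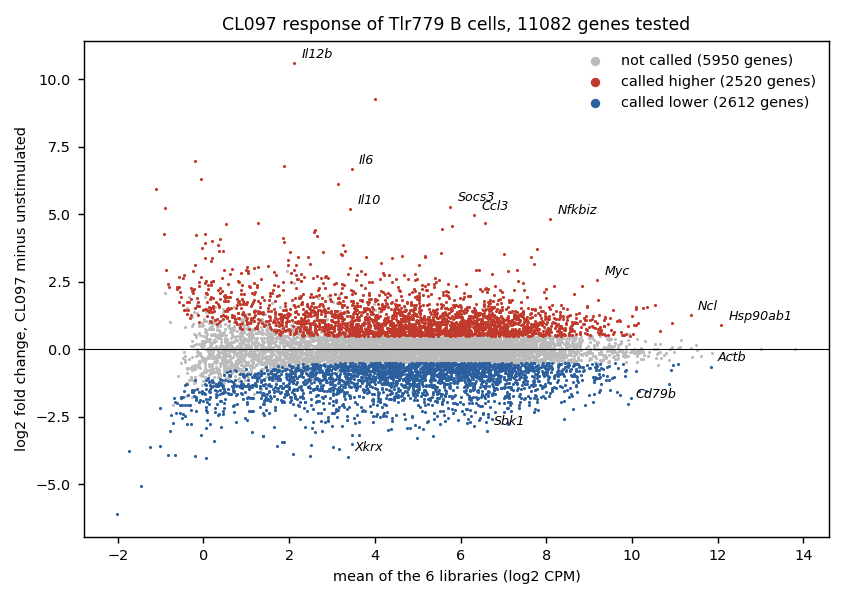
Log2 fold change (CL097 minus unstimulated, Tlr779 B cells) against the mean of the 6 libraries in log2 CPM, with each point 1 of 11082 genes tested, red when called higher (2520), blue when called lower (2612) and gray otherwise. The upper edge is formed by cytokine genes such as Il12b and Il6, and the called genes spread over the whole range of expression.

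The receptor and its adaptor were examined first. Tlr7 was at 7.31, 6.99 and 7.82 log2 CPM in the 3 CL097 libraries and at 7.33, 6.68 and 6.61 in the 3 unstimulated libraries. The groups overlapped, and the difference did not pass the test (log2 fold change 0.5, SE 0.24, adjusted p 0.11). Tlr9 was at 7.15, 6.93 and 7.47 with CL097 and at 7.22, 7.33 and 7.17 without (log2 fold change -0.06, SE 0.13, adjusted p 0.73), again with overlapping groups. These libraries are labelled Tlr9-/-, and a gene-level value does not tell which part of a locus, or which copy of the TLR9 TIR sequence, was read. Myd88, the adaptor shared by both receptors, was at 6.26, 5.97 and 6.28 with CL097 and at 6.01, 5.87 and 6.0 without (log2 fold change 0.21, SE 0.1, adjusted p 0.1). Tlr8 (0.43), the X-linked neighbor of Tlr7, was not called either. Thus none of these genes was called, but Tlr7 would have been called without certain libraries, as its log2 fold change was 0.69 (adjusted p 0.04) without the CL097 library 2 and 0.73 (adjusted p 0.03) without the unstimulated library 1.

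Other Toll-like receptors fell in part. Of 14 genes of TLRs and their accessory proteins that were tested, 7 fell and 0 rose, and the number that rose was 1 under quality weights, without a variance trend, without the CL097 library 2 or 3, without the unstimulated library 1 or without both libraries of number 3. Tlr4, the receptor for lipopolysaccharide, was at 2.07, 1.57 and 2.44 log2 CPM with CL097 and at 4.89, 4.58 and 4.52 without (log2 fold change -2.63, SE 0.23, adjusted p 3.7e-05). Cd180, a TLR4-like receptor of B cells, was at 4.65, 5.06 and 5.54 with CL097 and at 7.28, 7.33 and 7.42 without (log2 fold change -2.26, SE 0.19, adjusted p 3.4e-05). Every stimulated library was below every unstimulated library for both genes. Tlr13 (-1.87), Tlr12 (-1.68), Tlr6 (-1.13) and Tlr1 (-0.86) fell as well, given as log2 fold changes. Among 18 genes for the transport and processing of endosomal TLRs, 6 fell and 1 rose. Slc15a4, a lysosomal transporter required for TLR7 and TLR9 responses, fell by 1.09 on the log2 scale. Unc93b1, the chaperone that delivers TLR7 and TLR9 to endosomes, was not called (-0.36). Within the signal chain downstream of MyD88, 5 of 29 genes rose and 5 fell, both below the shares of all genes. The risers included the adaptor Traf1 (2.45), the kinase Ikbke (2.04) and Map3k8, the MAP kinase kinase kinase known as TPL2 (1.4). Irak3 (-1.73), which encodes an inhibitory IRAK, and Irak2 (-0.7) fell.

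Cytokine genes were among those with the largest fold changes. Of 16 tested among 39 listed cytokine genes, 9 rose and 3 fell. With the filter at 2 log2 CPM, 8 rose and 3 fell. A gene near-silent without CL097 was tested only if CL097 raised it, and genes near-silent in both groups were left out. The share of risers in this list and those below thus depends in part on the filter. Il12b (chromosome 11, 44400063 to 44414677, GRCm38), which encodes the p40 subunit of IL-12 and IL-23, was at 6.79, 8.09 and 7.37 log2 CPM with CL097 and at -1.96, -2.53 and -5.03 without. The values of the unstimulated libraries 1 and 2 lie around the level that 3 counts would give (-2.24 log2 CPM). That of library 3 lies near the value taken as that of 0 counts (-5.052). The fold change of 10.59 (SE 0.74, adjusted p 1.4e-05) therefore depends on how near-absent transcripts were normalized. Il6 (chromosome 5, 30013114 to 30019975), a cytokine that promotes plasma cell and germinal center responses, was at 7.19, 6.72 and 6.45 with CL097 and at 0.37, 0.71 and -0.69 without (log2 fold change 6.66, SE 0.36, adjusted p 5.9e-06). Il10 (chromosome 1, 131019845 to 131024970), the anti-inflammatory cytokine of regulatory B cells, was at 6.31, 5.76 and 6.0 with CL097 and at 1.05, 0.17 and 1.28 without (log2 fold change 5.19, SE 0.29, adjusted p 6.5e-06). A proinflammatory and an anti-inflammatory cytokine thus rose side by side in each of the 3 stimulated libraries. Il1b was at 8.28, 8.23 and 7.78 with CL097 and at 3.56, 3.79 and 3.18 without (log2 fold change 4.58, SE 0.18, adjusted p 2.7e-06). Its receptor antagonist Il1rn also rose (2.44), as did Il1a (2.49), Lif (3.93) and Ebi3, a subunit shared by IL-27 and IL-35 (3.43). Il12a, which encodes the partner chain of p40 in IL-12, was not called (-0.28). The cytokine genes that fell were Tgfb3 (-3.06), Il16 (-2.32) and Tgfb1 (-1.1). IL-16 is a chemoattractant of CD4+ cells, and the TGF-β proteins restrain lymphocyte activation.

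Ligands of the TNF superfamily showed a similar split. Of 8 tested among 17 listed ligand genes, 6 rose and 1 fell, and with the filter at 2 log2 CPM 4 rose and 1 fell. Tnfsf15, which encodes the T-cell costimulator TL1A, was at 5.67, 7.22 and 5.72 log2 CPM with CL097 and at 0.14, 0.97 and -0.84 without (log2 fold change 6.11, SE 0.54, adjusted p 3.7e-05). Tnf was at 6.24, 6.39 and 6.45 with CL097 and at 2.77, 3.05 and 2.9 without (log2 fold change 3.46, SE 0.11, adjusted p 1.8e-06). Lta, which encodes lymphotoxin α, rose (2.79), and Ltb, the gene of its membrane-anchoring partner, was the single ligand gene that fell. Ltb was at 5.79, 6.01 and 6.29 with CL097 and at 8.12, 8.4 and 8.4 without (log2 fold change -2.28, SE 0.13, adjusted p 7.6e-06). Tnfsf4, which encodes OX40 ligand, and Tnfsf9, which encodes 4-1BB ligand, rose by 3.43 and 1.85 on the log2 scale.

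Chemokine genes were led by Ccl3 and Ccl4, which attract T cells and myeloid cells. Ccl3 (chromosome 11, 83647843 to 83649378) was at 8.87, 8.77 and 8.73 log2 CPM with CL097 and at 3.93, 4.11 and 3.46 without (log2 fold change 4.96, SE 0.15, adjusted p 1.8e-06). Ccl4 (chromosome 11, 83648624 to 83664683) was at 9.01, 8.94 and 8.81 with CL097 and at 4.33, 4.4 and 4.0 without (log2 fold change 4.68, SE 0.11, adjusted p 5.9e-07). The annotated spans of Ccl3 and Ccl4 overlap in RefSeq, so reads in the shared stretch cannot be assigned to either. The summed level of the chemokine list was 80 to 94.3 CPM without and 997 to 1105 CPM with CL097. In total 6 of 13 tested chemokine genes, of 30 listed, rose, among them Ccl5 (2.26) and Cxcl16 (1.5). The gene that fell was Ccl6 (-0.99), whose call was lost when any 1 of 4 libraries was left out (log2 fold change -0.97 to -0.74). Cxcl10, a chemokine that responds to interferon and NF-κB, was at 5.53, 3.67 and 5.75 with CL097 and at 1.99, 0.98 and 1.52 without (log2 fold change 3.49, SE 0.53, adjusted p 6.6e-04). The stimulated library with the replicate number 2 was the lowest of the 3 for Cxcl10.

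**Figure D2:**
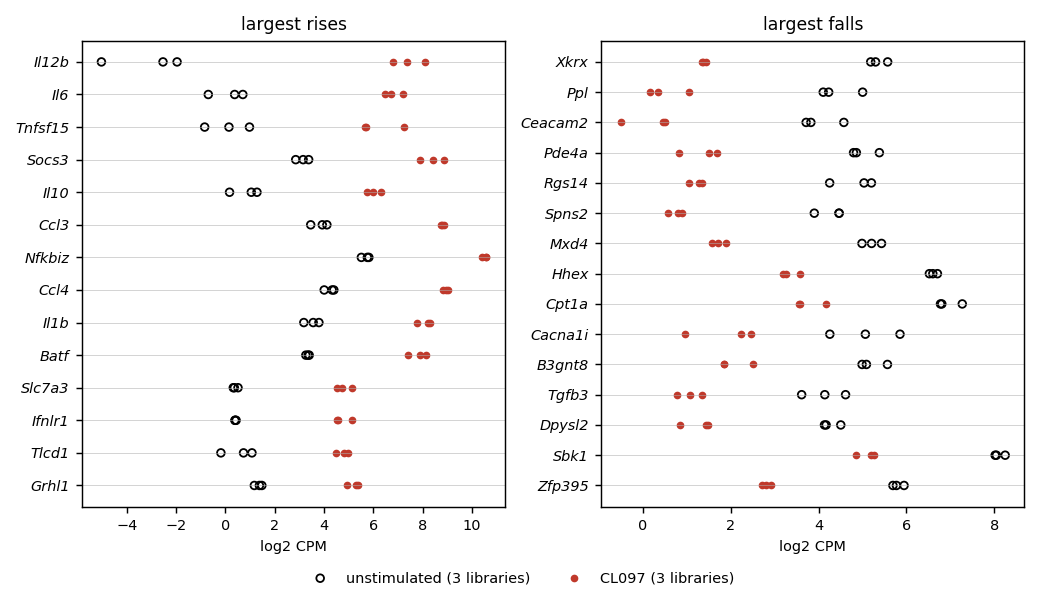
Log2 CPM in each library (filled circles, 3 CL097 libraries, and open circles, 3 unstimulated libraries) of 14 of the 15 largest rises and the 15 largest falls on the log2 scale, among called genes with a mean over 2 log2 CPM and groups that do not overlap. Il12b has the widest spread among the unstimulated libraries.

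The genes with the largest changes were not limited to secreted factors. Grhl1, which encodes an epithelial transcription factor, was at 5.36, 5.28 and 4.95 with CL097 and at 1.38, 1.48 and 1.17 without (log2 fold change 3.85, SE 0.17, adjusted p 3.5e-06). The interferon-λ receptor gene Ifnlr1 was at 4.55, 4.54 and 5.13 with CL097 and at 0.43, 0.39 and 0.4 without (log2 fold change 4.33, SE 0.2, adjusted p 4.0e-06). The arginine transporter gene Slc7a3 and the membrane protein gene Tlcd1 rose by 4.4 and 4.21 on the log2 scale.

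To follow the NF-κB pathway, its subunits and inhibitors were described next. NF-κB dimers are retained in the cytoplasm by IκB proteins, several of which are themselves NF-κB targets and form a feedback loop. Of 12 genes, 7 rose and 0 fell. Nfkbiz (chromosome 16, 55811375 to 55838954), which encodes the nuclear protein IκBζ needed for a secondary set of targets that includes Il6, was at 10.55, 10.57 and 10.39 log2 CPM with CL097 and at 5.75, 5.51 and 5.82 without (log2 fold change 4.81, SE 0.09, adjusted p 1.8e-07). Nfkb1, which encodes the p105 precursor of p50, was at 11.07, 10.92 and 11.06 with CL097 and at 9.53, 9.54 and 9.41 without (log2 fold change 1.52, SE 0.08, adjusted p 4.5e-06). The inhibitor genes Nfkbia (1.4), Nfkbib (1.19), Nfkbid (0.99) and Nfkbie (0.79) and the coactivator gene Bcl3 (1.1) rose. The genes of the other subunits, Rel (0.32), Rela (-0.1), Relb (0.05) and Nfkb2 (0.46), were not called with all 6 libraries, although Nfkb2 was called without the CL097 library 3 (0.55) or without the unstimulated library 2 (0.54). All members that rose other than Nfkb1 thus encode IκB family proteins.

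Short stretches of the promoters are shown for members that rose and whose 250 bases before the start held a match to the κB consensus, as given by RefSeq for GRCm38.p6. They run 5′ to 3′ in the direction of the gene, with the match in capitals. Rel and Nfkb2, which were not called, and Il16, which fell by 2.32 on the log2 scale, also held a match and are not shown. In the cytokine and chemokine lists, Ccl9 (-0.07, not called), Csf1, Cxcl1 and Cxcl2 held a match too and are not shown.
Il6 (chr5:30013060-30013089, + strand, motif at bases 44 to 35 before the start): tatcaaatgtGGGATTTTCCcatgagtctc
Nfkbia (chr12:55492657-55492686, - strand, motif at bases 29 to 20 before the start): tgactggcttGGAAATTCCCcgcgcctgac
Nfkbid (chr7:30422170-30422199, + strand, motif at bases 226 to 217 before the start): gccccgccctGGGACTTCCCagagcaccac
Nfkbie (chr17:45555584-45555613, + strand, motif at bases 106 to 97 before the start): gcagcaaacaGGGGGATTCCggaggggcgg
Ebi3 (chr17:55952569-55952598, + strand, motif at bases 44 to 35 before the start): gccccttcctGGGGCTTCCCcgttggccat
Cxcl10 (chr5:92348973-92349002, - strand, motif at bases 103 to 94 before the start): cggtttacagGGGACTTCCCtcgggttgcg
The consensus was searched by name on both strands over this window. It was present in 5.46% of genes tested that had a promoter in the table, in 5.96% of called genes that rose and in 5.63% of those that fell. Among genes that rose by more than 2 on the log2 scale, 21 held it (11.4%). The AP-1 motif TGANTCA was present in 5.2% of genes tested and in 14.1% of this most induced group. A match describes the letters in this window only and does not show that a factor was bound, and these shares were not tested.

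Feedback inhibitors outside the IκB family also rose in part. Tnfaip3, which encodes the deubiquitinase A20, rose by 1.58 on the log2 scale, and its binding partners Tnip1 (0.67), Tnip2 (0.89) and Tnip3 (2.67) did as well. Zc3h12a, which encodes the RNase Regnase-1 that degrades Il6 mRNA, rose by 1.22. In the opposite direction, the deubiquitinase gene Cyld (-1.28) and the mRNA decay gene Zfp36l2 (-1.92) fell. Over the whole list of inhibitors of NF-κB and cytokine mRNA, 9 of 23 genes rose and 6 fell.

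SOCS proteins bind JAKs and cytokine receptors and shut off STAT signaling. Socs3 (chromosome 11, 117966079 to 117970336) was at 8.86, 8.44 and 7.91 log2 CPM with CL097 and at 3.15, 2.85 and 3.38 without (log2 fold change 5.28, SE 0.23, adjusted p 3.5e-06). Socs1 was at 4.49, 2.98 and 3.66 with CL097 and at 1.65, 1.78 and 1.6 without (log2 fold change 2.03, SE 0.34, adjusted p 0.0012). In total 5 of 8 SOCS family genes rose, including Cish (2.08), and 0 fell. Among 11 genes of the kinases and factors they act on, Stat5a (2.18) and Stat3 (1.44) rose and Tyk2 (-1.02) fell. Cytokine receptor chains were more often lower, with 11 of 24 falling and 3 rising. Il6ra, the receptor chain for the strongly induced IL-6, fell by 2.84 on the log2 scale, and Il9r did so too (-2.68).

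Immediate early factors of the AP-1 family, which pair with NF-κB at many promoters, rose in 10 of 14 genes and fell in 1. Batf (chromosome 12, 85686720 to 85709087), required for class switching and for cooperation with IRF4, was at 8.12, 7.91 and 7.39 log2 CPM with CL097 and at 3.26, 3.4 and 3.35 without (log2 fold change 4.47, SE 0.17, adjusted p 2.3e-06). Jun was at 9.93, 9.62 and 9.39 with CL097 and at 5.57, 5.92 and 6.28 without (log2 fold change 3.72, SE 0.19, adjusted p 5.4e-06). Junb (1.18), Fos (0.81) and Maff (1.42) rose, and the list's faller was Jund (-0.79). EGR and NR4A genes, which follow antigen receptor signals, did not move together: Nr4a3 (1.39) and Nr4a1 (1.11) rose, Egr3 (-1.0) fell, and Egr1 (0.33) was not called. Of the dual-specificity phosphatases, which remove phosphates from MAP kinases, 6 of 14 rose, led by Dusp14 (2.46), and 3 fell, led by the ERK phosphatase gene Dusp6 (-2.08).

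Genes of the type I interferon response rose, to a different extent in the 3 pairs of libraries. Of 49 tested genes, 29 were called higher and 0 lower, and their median log2 fold change was 1.01, compared with -0.02 over all genes tested. Isg15, a ubiquitin-like modifier, was at 6.62, 5.49 and 6.79 log2 CPM with CL097 and at 4.03, 3.51 and 3.52 without (log2 fold change 2.62, SE 0.33, adjusted p 2.3e-04). Mx1, an antiviral GTPase, was at 7.46, 5.84 and 7.87 with CL097 and at 5.41, 3.83 and 4.88 without (log2 fold change 2.35, SE 0.56, adjusted p 0.0068). Usp18, which removes ISG15 from proteins and blocks receptor signaling, was at 6.82, 5.67 and 7.5 with CL097 and at 5.24, 4.28 and 4.48 without (log2 fold change 2.0, SE 0.44, adjusted p 0.0047). The stimulated library with the number 3 was highest for Isg15 and Mx1, and that with the number 2 was lowest. The median difference between libraries of the same number was 0.75 for number 1, 0.51 for number 2 and 1.79 for number 3, and 33, 25 and 43 of the 49 genes differed by more than 0.5 in these pairs. The summed level of the 50 listed genes was 11880, 6878 and 16130 CPM in the CL097 libraries 1, 2 and 3. It was 9571, 7010 and 8283 CPM in the corresponding unstimulated libraries, so that the sum was not higher with CL097 in number 2. How many members passed the test depended on the libraries included. It was 11 without both libraries of number 3, 17 without the CL097 library 3, 16 without the CL097 library 1 or without the unstimulated library 2, 17 without the unstimulated library 3, 38 without the CL097 library 2 and 34 with the replicate number as a block. What differs between the pairs was not tested. The 8 listed markers of plasmacytoid dendritic cells, which secrete type I interferon, summed to 322, 244 and 390 CPM with CL097 and 478, 440 and 430 CPM without. One of these markers, Bst2, is also in the interferon list and was called higher, so this sum is not separate from the interferon response. Another, Lair1 (-1.83), is also described below among the inhibitory receptors of B cells. The sum therefore does not stand for plasmacytoid dendritic cells alone.

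Single genes of sensing, signaling and response in the interferon pathway differed. Ifih1, which encodes the RNA sensor MDA5, rose by 1.97 on the log2 scale. Irf7, the factor that amplifies type I interferon transcription, was not called (log2 fold change 0.77, SE 0.44, adjusted p 0.16), but was called with the replicate block (0.77, adjusted p 0.0069) and without the CL097 library 2 (1.26, adjusted p 0.009). Rsad2 (0.5), which encodes the antiviral enzyme viperin, was not called. Ifnar1, which encodes a chain of the type I interferon receptor, fell by 0.81 on the log2 scale, while Ifnar2 (0.14) was not called. The immunity-related GTPases, small GTPases that respond to type I and type II interferon, rose in 7 of 8 genes, a count that was 4 without the CL097 library 1, without the CL097 library 3 or without the unstimulated library 3. Their median difference was 1.11, 0.44 and 2.15 for numbers 1, 2 and 3, the same order as for the interferon list, with which 3 of them are shared. Reads of near-identical genes such as Tgtp1 and Tgtp2 or members of the Oas1 and Ifit families can be divided differently by read counting and are uncertain as single genes.

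**Figure D3:**
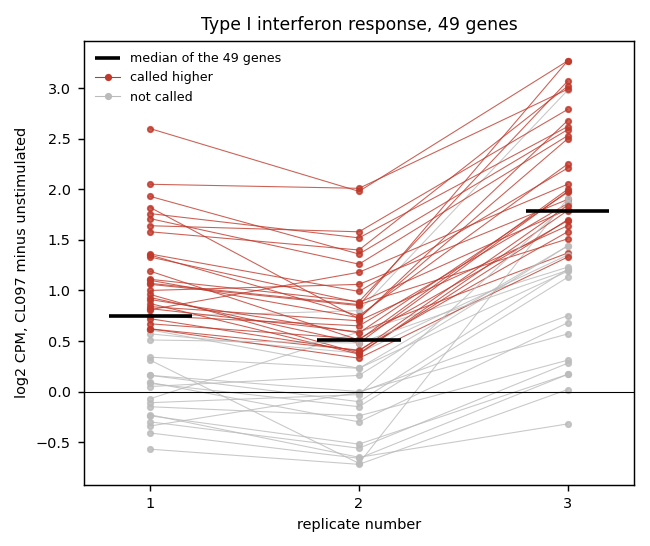
Difference of log2 CPM between the CL097 and the unstimulated library of the same replicate number for 49 interferon response genes, 1 line per gene, red when called higher over the 6 libraries, with the median of the genes as a black bar. The median is 0.75, 0.51 and 1.79 for the numbers 1, 2 and 3, and 43 of the 49 genes exceed 0.5 at number 3.

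Promoters of this group are shown for 4 called members with a match to the ISRE core GAAANNGAA, the element bound by interferon-stimulated complexes, in the direction of the gene and with the match, on either strand, in capitals.
Isg15 (chr4:156200872-156200900, - strand, motif at bases 72 to 64 before the start): gtaggaaaagGAAACCGAAacagaaaata
Irgm1 (chr11:48871426-48871454, - strand, motif at bases 24 to 16 before the start): tcaagaaataGAAACCGAAactgattctc
Oas3 (chr5:120777710-120777738, - strand, motif at bases 69 to 61 before the start): aggagaaaacGAAAGTGAAgggaggtgac
Ifih1 (chr2:62646349-62646377, - strand, motif at bases 112 to 104 before the start): agaattcgcgTTCCCTTTCctgtttctca
The ISRE core was present before the start of 17 of 35 interferon response genes with a promoter in the table (48.6%), compared with 7.57% of all genes tested. Ifit3, Rsad2, Stat2, Slfn5, Slfn8, Adar and Trim25 were among these holders, were not called and are not shown. The calls for Irgm1 (1.01) and Oas3 (1.44) were lost without the CL097 library 1 or 3 or the unstimulated library 2 or 3, at log2 fold changes of 0.71 to 0.93 and of 1.14 to 1.33. In Isg15, Irgm1 and Oas3 the match shown overlapped a neighboring match to the same motif.

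CL097 raised a broad set of activation and costimulation genes. Of 20 such genes, 13 rose and 1 fell, and their summed level was 3606 to 4031 CPM without and 7402 to 7932 CPM with CL097. Cd69, an early activation marker that retains cells in lymphoid tissue, was at 8.89, 8.0 and 8.91 log2 CPM with CL097 and at 5.92, 6.02 and 6.29 without (log2 fold change 2.52, SE 0.24, adjusted p 5.0e-05). Cd83, which stabilizes MHC class II on activated B cells, was at 10.86, 10.84 and 10.85 with CL097 and at 9.28, 9.5 and 9.28 without (log2 fold change 1.49, SE 0.08, adjusted p 5.5e-06). Il2ra, which encodes the IL-2 receptor chain CD25, was at 9.42, 9.18 and 9.32 with CL097 and at 5.97, 6.07 and 6.38 without (log2 fold change 3.17, SE 0.12, adjusted p 2.0e-06). The SLAM family genes Slamf1 (3.42) and Slamf7 (2.12) and the adhesion gene Icam1 (1.21) rose as well. The 2 B7 genes differed. Cd80 rose by 1.23 on the log2 scale, whereas Cd86 was at 8.23, 8.5 and 7.9 with CL097 and at 8.12, 8.19 and 7.75 without, with overlapping groups (log2 fold change 0.19, SE 0.17, adjusted p 0.34). Icosl, the ligand of ICOS, was the gene of this list that fell (-1.28).

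Genes for receptors of T-cell help moved in both directions. Cd40 was at 8.12, 7.71 and 7.91 log2 CPM with CL097 and at 6.54, 6.68 and 6.74 without (log2 fold change 1.26, SE 0.11, adjusted p 3.5e-05). Tnfrsf13b, which encodes TACI, a receptor for BAFF and APRIL, rose by 1.55, while Tnfrsf13c, which encodes the BAFF receptor, was not called (-0.11). Tnfrsf8 (4.66), the gene of CD30, had the largest rise of the family, and Cd27 (-1.52) and Tnfrsf18 (-1.02) fell. The TNF receptor list as a whole had 8 of 14 genes higher and 2 lower.

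Molecules attributed to regulatory B cells were examined as a separate list. Besides Il10 and Ebi3, the checkpoint ligand gene Cd274, which encodes PD-L1, was at 8.98, 8.71 and 8.62 log2 CPM with CL097 and at 6.23, 5.74 and 5.57 without (log2 fold change 2.92, SE 0.17, adjusted p 7.2e-06). Pdcd1lg2, which encodes PD-L2, rose by 2.39, Lag3 by 3.02, Nfil3 by 3.37 and Tigit by 1.8 on the log2 scale. The surface marker genes Cd1d1 (-1.5) and Cd5 (-1.33) fell, the call for Cd5 being lost without both libraries of number 2 (-1.21, adjusted p 0.064), and Cd9 was not called (0.32). Of 18 genes, 9 rose and 4 fell.

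The antigen receptor pathway was mostly lower after CL097. Of 26 tested genes of the B-cell receptor (BCR) and its proximal signal, 14 fell and 1 rose. Cd79b (chromosome 11, 106311341 to 106314562), which encodes Igβ of the receptor complex, was at 8.49, 8.96 and 9.26 log2 CPM with CL097 and at 10.85, 10.70 and 11.20 without (log2 fold change -2.01, SE 0.2, adjusted p 7.3e-05). Cd79a, the gene of Igα, was at 9.21, 9.39 and 9.62 with CL097 and at 10.88, 10.77 and 11.19 without (log2 fold change -1.54, SE 0.14, adjusted p 4.1e-05). Syk, the kinase that binds both chains, was at 8.74, 8.85 and 8.94 with CL097 and at 10.40, 10.23 and 10.66 without (log2 fold change -1.59, SE 0.11, adjusted p 1.5e-05). Btk (-1.27), Pik3r1 (-1.5) and Bank1 (-1.62), which act further along the same pathway, fell too. Cd81 (0.74), a tetraspanin, was the gene of the list that rose, a call lost without the unstimulated library 3 (0.67, adjusted p 0.052). These are also B-cell markers, and the 10 B-cell markers summed to 2980 to 3602 CPM with CL097 and to 6921 to 8547 CPM without. Pax5 (0.02), which specifies the lineage, was not called.

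Negative regulators of the BCR fell as well. Of 25 phosphatases, kinases and adaptors that dampen antigen receptor signals, 16 fell and 3 rose. Inpp5d, which encodes the lipid phosphatase SHIP-1, was at 7.35, 7.42 and 7.8 log2 CPM with CL097 and at 9.85, 9.6 and 9.76 without (log2 fold change -2.21, SE 0.13, adjusted p 6.6e-06). Lax1, a transmembrane adaptor, was at 4.75, 4.96 and 4.64 with CL097 and at 7.51, 7.72 and 7.3 without (log2 fold change -2.72, SE 0.13, adjusted p 3.9e-06). Ptpn6 (-1.22), the gene of SHP-1, and Dgka (-2.05) also fell, while Ptpn1 (0.87), the gene of the tyrosine phosphatase PTP1B, rose. Stap1 (0.59) and Ptpn2 (0.5) were the other genes that were higher, and the call for Ptpn2 was lost without the CL097 library 1 (0.49) or the unstimulated library 2 (0.47). The study named 12 regulatory genes as higher in CL097-stimulated Tlr779 than in CL097-stimulated Tlr7+/Y B cells. That comparison was between genotypes and included these libraries. Here, against unstimulated Tlr779 cells, all 12 fell, with log2 fold changes of -2.72 to -0.95. This is a different contrast, so the falls neither repeat nor oppose the study's result, and the genes are no independent evidence of a direction.

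Inhibitory receptors changed in both directions, with 10 genes lower and 7 higher of 24. Cd22 was at 6.97, 7.02 and 6.59 log2 CPM with CL097 and at 8.71, 8.62 and 8.79 without (log2 fold change -1.85, SE 0.12, adjusted p 9.2e-06). Siglecg (-1.99), Fcgr2b (-1.21) and Lair1 (-1.83) fell as well. Ceacam1 and Ceacam2, whose reads may be shared, fell to a similar extent (log2 fold changes -3.56 and -3.89). Lag3 (3.02), Fcrl5 (2.3), Tigit (1.8), Ctla4 (1.41) and Btla (0.76) rose.

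**Figure D4:**
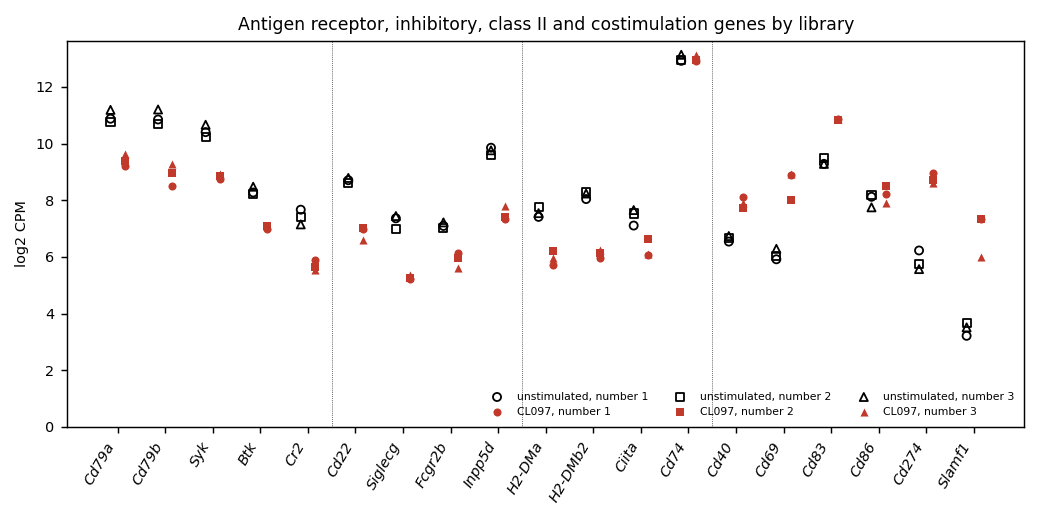
Log2 CPM of 19 genes in each library, open symbols without and filled symbols with CL097, with circles, squares and triangles for replicate numbers 1, 2 and 3, ordered as antigen receptor, inhibitory, class II and costimulation genes. The stimulated libraries lie below all unstimulated ones for Cd79b, Cd22 and H2-DMb2 and above them for Cd69 and Cd274, while those of Cd86 overlap and Cd74 has the same rank in each.

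Genes of antigen presentation by MHC class II fell, in most of the list's loading machinery and less in its structural chains. Of 17 genes, 11 fell and 1 rose. H2-DMb2, a chain of the peptide exchange factor H2-M, was at 5.95, 6.15 and 6.26 log2 CPM with CL097 and at 8.04, 8.31 and 8.24 without (log2 fold change -2.07, SE 0.1, adjusted p 4.5e-06). H2-DMb1 (-1.88), H2-DMa (-1.62) and the genes of the H2-M inhibitor H2-O, H2-Oa (-1.4) and H2-Ob (-1.13), fell as well. Cd74, which encodes the invariant chain, was at 12.92, 12.95 and 13.13 with CL097 and at 12.92, 12.95 and 13.13 without. It held rank 2 of all genes in each of the 6 libraries, and its value was the same in both libraries of each number, so after quantile normalization these values show no more than an equal rank. H2-Aa fell (-0.55), a call lost without the CL097 library 1 (-0.46), and H2-Ab1 (-0.34) and H2-Eb1 (-0.3) were not called. Ciita (-1.17), the master regulator of class II transcription, and March1 (-2.82), a ubiquitin ligase that removes class II and CD86 from the surface, fell. The MHC class I list had 3 of 20 genes higher and 1 lower, with a median log2 fold change of -0.02.

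Receptors that position B cells changed in a pattern led by Ccr7, the receptor for T-zone chemokines. Ccr7 was at 11.36, 11.40 and 11.28 log2 CPM with CL097 and at 9.86, 9.95 and 9.35 without (log2 fold change 1.63, SE 0.15, adjusted p 4.5e-05). Gpr183 (0.81), the oxysterol receptor EBI2, and Cxcr5 (0.54), the follicle receptor, also rose, but these calls were lost without the CL097 library 1 (0.69) and without the unstimulated library 3 (0.48), respectively. 13 of 20 genes fell, including the egress receptors S1pr1 (-1.52) and S1pr4 (-2.94), the CCL20 receptor Ccr6 (-1.96) and the cannabinoid receptor Cnr2 (-1.74). S1pr3 (-0.93) and Cr2 (-1.71), markers of MZ B cells, fell as well. The cells were labelled only as B cells, and the MZ marker list had 6 of 10 genes lower and 1 higher, and the FO marker list 3 of 7 lower and 3 higher.

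Transcription factors of B-cell identity went lower more often than higher, in 18 compared with 9 of 32 genes. Ets1 (chromosome 9, 32636241 to 32757820), which restrains plasma cell formation, was at 8.85, 9.1 and 9.3 log2 CPM with CL097 and at 10.95, 10.69 and 10.99 without (log2 fold change -1.79, SE 0.13, adjusted p 1.5e-05). Id3 (-2.66), Ikzf3 (-1.95), Bhlhe41 (-1.83), Mef2c (-1.68) and Pou2af1 (-1.7) fell, and Hhex, a homeobox factor of memory B cells, fell by 3.28. Irf4 (chromosome 13, 30749233 to 30766981), which controls class switching and plasma cell fate by its dose, was at 10.98, 10.86 and 10.77 with CL097 and at 9.28, 9.32 and 9.27 without (log2 fold change 1.58, SE 0.07, adjusted p 4.0e-06). Tbx21, which encodes T-bet of age-associated B cells, was at 4.21, 4.46 and 2.65 with CL097 and at 1.47, 2.42 and 0.83 without (log2 fold change 2.2, SE 0.54, adjusted p 0.008). Gfi1 (1.84), Id2 (1.56), Runx3 (1.54), Pou2f2 (1.11) and Bcl6 (0.93) rose.

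Genes of the plasma cell program were more often lower than higher at 4 h. Prdm1, which encodes its regulator Blimp-1, was at 4.86, 3.88 and 4.39 log2 CPM with CL097 and at 4.28, 3.52 and 4.57 without (log2 fold change 0.26, SE 0.32, adjusted p 0.5). Sdc1 (-2.49), the gene of CD138, and Mzb1 (-1.52), a chaperone of antibody assembly, fell, and the list had 2 genes higher and 7 lower of 15. The lower count was 4 without the CL097 library 2, without the unstimulated library 1 or without the unstimulated library 3. Of 23 genes of class switching and DNA repair, 9 rose, led by the uracil glycosylase gene Ung (1.67) and Nbn (1.34), and 4 fell, led by Parp1 (-1.34) and Prkdc (-1.2).

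The machinery of growth was raised. Myc (chromosome 15, 61985341 to 61990361), which drives biosynthesis after B-cell activation, was at 10.68, 10.29 and 10.44 log2 CPM with CL097 and at 7.96, 8.09 and 7.66 without (log2 fold change 2.56, SE 0.13, adjusted p 5.5e-06). Mxd4, which encodes a MAX partner that opposes MYC, fell by 3.49. Of 56 ribosome biogenesis genes, 55 rose and 0 fell, their median log2 fold change was 1.23, and their summed level was 8769 to 9443 CPM without and 20040 to 21600 CPM with CL097. The gene of the list that was not called was Pes1 (0.41). Ncl, which encodes nucleolin, was at 12.01, 12.02 and 11.97 with CL097 and at 10.72, 10.77 and 10.72 without (log2 fold change 1.26, SE 0.07, adjusted p 6.0e-06). The list was led by Rrp1b (2.36), Rrp9 (1.97) and Bysl (1.96), and the RNA polymerase I subunit genes Polr1b (1.85) and Polr1a (1.01) rose with it. The E-box CACGTG, which MYC and other factors can bind, was present before the start of 6% of the ribosome biogenesis genes with a promoter in the table, compared with 10.4% of genes tested.

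Genes of translation, folding and metabolite supply moved in the same direction. 20 of 37 translation initiation factor genes rose and 0 fell, with Eif2b3 (2.36), Eif4e (1.37) and Eif4a1 (1.22) among the risers. Aminoacyl-tRNA synthetase genes rose in 16 of 22 and fell in 0. Heat shock proteins and chaperones rose in 22 of 26, and Hsp90ab1 had the largest gain of CPM of any called gene, from 3197 ± 336 to 5887 ± 352 CPM (SD, n = 3 each). Nucleotide and one-carbon synthesis genes rose in 20 of 26, led by the thymidylate synthase gene Tyms (2.57) and the CTP synthase gene Ctps (2.13). Mitochondrial ribosomal protein genes rose in 42 of 76 and fell in 2. Amino acid transporter genes rose in 9 of 18, including Slc6a9 (2.0), Slc1a4 (1.62) and Slc7a5 (1.48), and fell in 2.

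Other parts of metabolism did not follow. Of 79 cytosolic ribosomal protein genes, 5 rose and 0 fell, and the median was -0.07, although these genes have many pseudogene copies that can share reads. Oxidative phosphorylation genes rose in 12 and fell in 4 of 74. Glycolysis genes rose in 4 and fell in 7 of 26, and the hexokinase genes were opposed, with Hk2 (2.92) higher and Hk1 (-1.12) lower. Cholesterol and fatty acid synthesis genes rose in 3 and fell in 5 of 30. These shares were below those of all genes except for the glycolysis genes that fell (26.9%). Cpt1a, which imports fatty acids into mitochondria for oxidation, was at 3.57, 3.55 and 4.17 log2 CPM with CL097 and at 6.78, 6.81 and 7.27 without (log2 fold change -3.19, SE 0.2, adjusted p 8.8e-06).

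**Figure D5:**
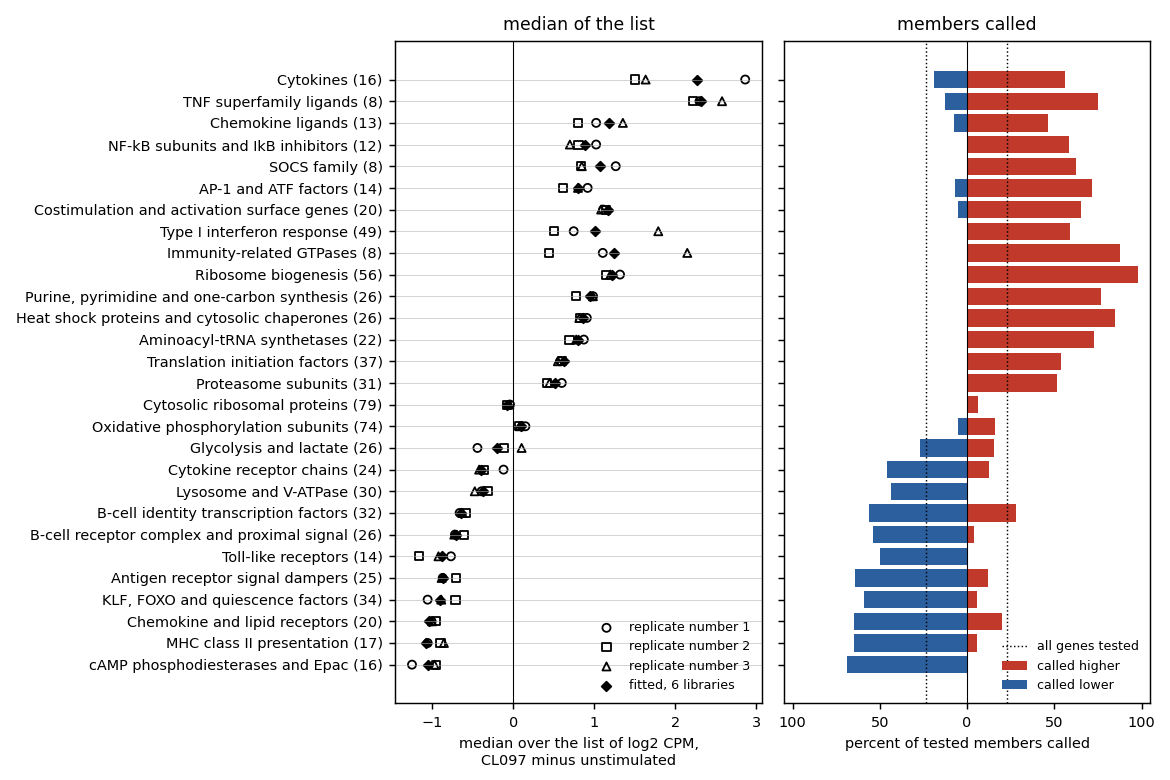
Left, the median over each list of the log2 CPM difference (CL097 minus unstimulated), open symbols for replicate numbers 1, 2 and 3 and a diamond for the fit of the 6 libraries, with the number of genes tested in parentheses. Right, the percent of tested members called higher (red) and lower (blue), with dotted lines at the shares of all genes tested (22.7 and 23.6%). Ribosome biogenesis reaches the largest share called higher of the lists drawn, and the interferon and immunity-related GTPase lists have their number 3 value well to the right of their number 2 value.

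Genes of quiescence were more often lower, and part of the genes of cell cycle entry were higher. Of 34 quiescence genes, 20 fell and 2 rose. Txnip, which limits glucose uptake, was at 5.68, 5.89 and 5.66 log2 CPM with CL097 and at 8.42, 8.38 and 8.6 without (log2 fold change -2.72, SE 0.09, adjusted p 1.9e-06). Klf2 (-1.25), Foxo1 (-0.65), Btg2 (-1.55) and Cdkn1b (-1.69), the gene of the CDK inhibitor p27, fell. Ccnd2, which encodes the cyclin D2 of B cells, was at 10.08, 9.94 and 10.03 with CL097 and at 7.57, 7.9 and 7.52 without (log2 fold change 2.35, SE 0.1, adjusted p 3.5e-06), and its partners Cdk6 (2.17) and Cdk4 (0.95) rose. DNA replication and G1/S genes rose in 16 of 34 and fell in 1, with Cdc6 (2.1), Orc1 (1.88) and Mcm10 (1.8) in the lead. Their summed level was 1751, 2465 and 2594 CPM in the CL097 libraries 1, 2 and 3 and 1669, 1740 and 1626 CPM in the unstimulated libraries, and the median difference was 0.2, 0.53 and 0.81 in numbers 1, 2 and 3. The count of rises was 9 without both libraries of number 2 and 8 without those of number 3, and the call for Cdc6 was lost in both cases (1.78, adjusted p 0.083, and 1.66, adjusted p 0.058).

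Mitotic genes differed between the stimulated libraries. Of 26 genes, 3 rose and 1 fell, both under the shares of all genes, but 8 were called higher with the replicate number as a block. Without the CL097 library 1, 18 of these genes were called higher, and without the CL097 library 2 or 3, 0 were. Their summed level was 545, 1450 and 1422 CPM in the CL097 libraries 1, 2 and 3 and 696, 762 and 768 CPM in the unstimulated libraries. Mki67 was at 6.6, 8.98 and 8.72 log2 CPM with CL097 and at 7.26, 7.18 and 7.08 without (log2 fold change 0.93, SE 0.54, adjusted p 0.17). The stimulated library 1 was below all 3 unstimulated libraries and the stimulated libraries 2 and 3 were above them, and without that library the log2 fold change of Mki67 was 1.68 (adjusted p 5.1e-05).

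Genes of the BCL2 family, which holds survival and proapoptotic members, rose in 9 (56.2%) and fell in 3 (18.8%) of 16. Bcl2l1, which encodes the survival protein BCL-XL, was at 8.01, 8.01 and 7.71 log2 CPM with CL097 and at 4.41, 5.44 and 5.03 without (log2 fold change 2.95, SE 0.23, adjusted p 2.3e-05). Bcl2 (1.54) and the Bcl2a1 genes rose, the latter by 2.21 to 2.49 on the log2 scale in 3 near-identical copies that share reads. Mcl1 was at 8.93, 9.09 and 9.02 with CL097 and at 10.02, 9.99 and 10.17 without (log2 fold change -1.04, SE 0.08, adjusted p 1.7e-05), and was the survival gene among those named here that fell. Among the proapoptotic members, Bmf (-2.44) and Bad (-1.25) fell, and Bbc3 (0.77) and Pmaip1 (0.58) rose.

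The genes with the largest falls had varied functions. Xkrx, an X-linked gene of the XK family, was at 1.45, 1.36 and 1.34 log2 CPM with CL097 and at 5.3, 5.19 and 5.57 without (log2 fold change -3.97, SE 0.15, adjusted p 2.0e-06). Pde4a, which encodes a cAMP phosphodiesterase, was at 1.68, 1.5 and 0.83 with CL097 and at 5.38, 4.86 and 4.8 without (log2 fold change -3.68, SE 0.26, adjusted p 1.4e-05). Rgs14, a regulator of G protein signaling, was at 1.05, 1.34 and 1.28 with CL097 and at 5.2, 4.25 and 5.04 without (log2 fold change -3.61, SE 0.25, adjusted p 1.4e-05). The lists of Pde4a and Rgs14 had few or no risers. Of the cAMP list, 11 of 16 genes of cAMP turnover and its effectors fell and 0 rose, among them Adcy7 (-2.54), Pde2a (-2.17) and Pde3b (-1.38). In the RGS family, 5 of 10 genes fell and 0 rose. The other large falls were those of Spns2, which encodes a transporter of sphingosine 1-phosphate (-3.52), the plakin gene Ppl (-3.93), the calcium channel gene Cacna1i (-3.17), the glycosyltransferase gene B3gnt8 (-3.15), the kinase gene Sbk1 (-3.0), the cytoskeletal regulator gene Dpysl2 (-3.02) and the zinc finger gene Zfp395 (-3.0).

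The changes were also ranked by the CPM that a gene gained or lost. Besides Hsp90ab1, the largest gains of mean CPM among called genes were those of Ncl, from 1706 ± 32.6 to 4090 ± 70.1 CPM, Ccr7, from 856 ± 179 to 2608 ± 114, and Swap70, a signaling protein of activated B cells, from 766 ± 36 to 2246 ± 109 (SD, n = 3 each). The largest losses were those of Serinc3, a membrane protein gene, from 2959 ± 418 to 1248 ± 443 CPM, Actb, which encodes β-actin, from 4594 ± 415 to 2960 ± 383, and Cd79b, from 1954 ± 360 to 491 ± 128 (SD, n = 3 each). Nfkb1, Nfkbiz, Npm1, Irf4, Cd83 and Myc completed the 10 largest gains, and Gdi2, Ets1, Cd79a, Pou2af1, Tmsb4x, Syk and H2-Aa the 10 largest losses.

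To place the response beside the other stimulations of the series, the same genes were read in the CpG libraries. The agonist, its dose, the receptor, the sex, the genotype and the age range given by the study all differed. The values are therefore given side by side, and no difference was tested. Across 11082 genes, which are not independent replicates, the log2 fold changes correlated at 0.869 with those of CpG in Tlr9het cells and at 0.851 with those of CpG in Tlr997 cells. Il12b had a log2 fold change of 10.59 with CL097 in Tlr779, 8.18 with CpG in Tlr9het and 5.61 with CpG in Tlr997. For Il6 these values were 6.66, 4.93 and 4.39. Usp18 had values of 2.0, 0.21 and 1.18 in the same order. Mx1 had values of 2.35, -0.14 and 0.89, and Isg15 had 2.62, 2.18 and 2.09. Inpp5d had -2.21, -4.94 and -4.3, and Ets1 had -1.79, -3.56 and -3.61, so that for these repressed genes the value with CL097 was the smallest of the 3 in size. These genes are examples, and others had the opposite order. Among induced genes, Batf had 4.47, 5.46 and 4.64, and Tnfrsf8 had 4.66, 7.41 and 6.21. Among repressed genes, Ceacam1 had -3.56, -2.84 and -3.09, and Id3 had -2.66, -1.92 and -2.41.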

How the data were processed

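Bead-purified splenic B cells were sequenced as mRNA libraries. Per the labels, the authors used FastQC 0.11.7, Trim Galore 0.6.5, STAR 2.6.1a (mm10), featureCounts (Subread 2.0.1) and limma. The deposited values were log2 CPM after their quantile normalization and voom, which adds an offset to counts, for 23420 gene symbols per library. No counts were used, so the depth of each library is unknown. The most frequent value of -5.052, taken as that of 0 counts, implies a common library size for which 3 counts would be at -2.24 log2 CPM. Quantile normalization gives all libraries 1 distribution of values, so a change of total RNA per cell is not seen. The strand setting of the counting is not given in the sources used here.

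The 6 libraries were fitted with limma 3.58.1 (R 4.3.3) with a variance trend and no block, and p-values were adjusted by Benjamini-Hochberg over all genes tested. The labels name 3 mice but tie no library number to a mouse, so p-values measure the spread between these samples. Libraries with the same number deviated together (correlations of deviations 0.252, 0.485 and 0.334), so the numbers were taken to pair the samples, and a fit with the replicate block was run as an alternative. Of 6209 genes below -4 log2 CPM in all 18 libraries, 6008 had the same value in all libraries of a replicate number, and 524 of them had unlike values for the 3 numbers, scattered about the most frequent value. An offset per number taken out before deposit would leave such a trace, and the test does not account for one.

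Named genes were the 15 largest and 15 smallest log2 fold changes among called genes with a mean over 2 log2 CPM and groups that did not overlap, the 10 largest gains and losses of mean CPM, Tlr7, Tlr8, Tlr9 and Myd88, and, from each list, the largest changes, the highest expressed and the defining genes, and other members were chosen after their values were seen. The members, lists and tests were chosen with earlier results of these data known. Coordinates and promoters came from RefSeq (GRCm38.p6), in which 21571 symbols matched directly and 23259 with older symbols. Some members of the lists and some of the named genes are not reported here. Motifs were counted in the 250 bases before a start.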

Additional observations from a re-analysis of the deposited data

How the results depend on the processing

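Under the other settings of filter, pseudocount, scaling, variance model and libraries, the number of genes called was within 1.5 times of 5132, and it was 4518 to 5184 when 1 library or 1 replicate number was left out. A threshold of 1 on the log2 scale called 2580 genes, 1245 higher and 1335 lower. With the replicate block, 5383 genes were called, 2645 higher and 2738 lower, and of the 246 genes named with a fold change 0 lost and 1 gained a call, Irf7. Median centring moved the median log2 fold change of all genes from -0.019 to -0.014. No called gene named with a fold change reversed its direction under these settings, and 21 of 223 lost the call in at least 1 setting, most often without a filter on low values, where Actb (-0.64, adjusted p 0.088) and Mx1 (2.35, adjusted p 0.091) did so. Among genes not called, the sign changed when libraries were left out for Tlr9 (-0.23 to 0.12), Pax5 (-0.05 to 0.11), Prdm1 (-0.05 to 0.51) and Rsad2 (-0.20 to 1.11). The count of interferon response genes called higher ranged from 6 without a filter to 38, with 18 under quality weights or without a variance trend, and that of immunity-related GTPases from 1 to 8. The count of G1/S genes higher was 23 without the CL097 library 1. The counts of these lists under other settings were added after seeing the data. The causes were not tested. Depth per library is unknown, which limits what can be said of genes near 0 log2 CPM.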

Other observations

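Gene groups outside the signaling and growth lists are given here as values, to be read against the shares of all genes tested (22.7% higher and 23.6% lower). Not all of them differed from these shares. Genes of endoplasmic reticulum chaperones (19.4% higher and 19.4% lower) were below both, and IRF genes (25% and 25%) were close to both. Of 30 lysosome and V-ATPase genes, 13 fell and 0 rose. Tfeb, the transcription factor of lysosome biogenesis, fell by 1.39 on the log2 scale. Integrin genes fell in 6 of 14 and rose in 1. Itgb7, whose product pairs with the α4 chain for gut homing, fell by 2.93 and Itgb1 (0.94) rose. Proteasome subunit genes rose in 16 of 31 and fell in 0, and splicing factor genes rose in 16 of 34 and fell in 0.

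Chaperones of the endoplasmic reticulum did not follow the cytosolic chaperones, with 6 genes higher and 6 lower of 31. The histone-modifying enzyme list was mixed, with 6 of 27 genes higher and 11 lower. Kdm6b, which encodes the H3K27 demethylase JMJD3, was at 9.91, 9.55 and 9.6 log2 CPM with CL097 and at 7.65, 7.69 and 7.54 without, and Hdac5 fell by 1.79. Of 8 IRF genes, 2 rose, which besides Irf4 was Irf8 (0.64), and 2 fell, Irf2 (-0.97) and Irf5 (-0.66). Guanylate-binding protein genes rose in 5 of 9, with median differences of 0.75, 0.4 and 1.44 in the pairs of numbers 1, 2 and 3. Gimap GTPase genes of lymphocyte survival rose in 1 and fell in 3 of 8. The age-associated B-cell markers had 4 genes higher and 1 lower of 8. The study's purification depleted CD11b+ and CD11c+ cells, so these values do not give the number of age-associated B cells. Fcrl5 is on both this list and the MZ marker list.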
